A study of Homo sapiens with 8 samples.

Results

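The sites described here lay in intergenic DNA far from genes and were called accessible in every library made after UV and in no library of unchallenged cells. They were found by ATAC-seq, an assay that uses the Tn5 transposase to tag DNA wherever chromatin is open. The cells were U2OS, an established line from a human osteosarcoma, and were either WT or ASH1L-/-. Both genotypes were left unchallenged or irradiated with UV-C (20 J per square metre) and collected 3 h later, and each of the 4 groups had 2 biological replicates, which gives 8 libraries. The ASH1L-/- cells carried deletions that CRISPR/Cas9 had introduced into exons of the gene of the histone methyltransferase ASH1L, and were grown from an isolated colony, so that the genotype was represented by a clonal line. The peak regions of all 8 lists were merged into 547779 union sites. Of these, 238711 were distal intergenic, with their midpoint outside protein-coding genes and more than 10 kb from the transcription start site (TSS) of every protein-coding gene.

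A UV-gained distal intergenic site had a region in all 4 UV lists and in none of the 4 unchallenged lists. This held for 1665 sites, which is 0.697% of the distal intergenic union sites, against 0.686% (3757 sites) of all union sites. The reverse pattern, a region in all 4 unchallenged lists and in no UV list, was found at 270 distal intergenic sites (0.113%). The gained sites were chosen on the presence of regions before and after UV, so these counts describe the choice and were not tested. Gained sites made up 86.0% of the 1935 distal sites that separated UV from no UV (exact Clopper-Pearson 95% interval 84.4% to 87.6%, counting error only). The UV lists were also more alike, sharing 41.9% to 52.5% of union sites between pairs of libraries, against 30.4% to 35.0% for the unchallenged lists. A region in all 4 lists was thus harder to reach without UV, and the part of this in the split was not tested. A missing region means that the list, which ended at a p-value of 0.01, did not reach the site, and not that the chromatin was closed.

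Distal intergenic accessible DNA includes enhancers, elements that bind transcription factors and act on genes over long distances. UV light damages DNA, mostly at neighbouring pyrimidines, and also switches on stress kinases that phosphorylate the JUN and FOS proteins. These proteins pair to form AP-1, which binds a short palindromic motif and can open chromatin with partner factors. UV also stabilises p53, the tumour suppressor that binds pairs of a palindromic decamer, and can activate NF-kB, the main regulator of inflammatory genes. The sequences at the gained sites were therefore searched for these motifs, none of which the choice of sites had used.

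The AP-1 motif, TGANTCA on either strand, lay within 100 bp of the midpoint in 966 of the 1665 gained sites (58.0%). The following stretches of the plus strand of hg38 are shown because they carry it. Each is named after its nearest protein-coding gene, with AP-1 matches in capitals. The first 3 belong to the 10 gained sites of highest fold enrichment, and the last 2 were among the 3 sites with the most matches.
SOX11 site, chr2:5798214-5798314: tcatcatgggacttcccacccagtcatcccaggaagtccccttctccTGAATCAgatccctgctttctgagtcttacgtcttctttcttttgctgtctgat
AADAT site, chr4:170742064-170742164: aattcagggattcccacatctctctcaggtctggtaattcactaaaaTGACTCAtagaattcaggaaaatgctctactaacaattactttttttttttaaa
MTAP site, chr9:21678008-21678108: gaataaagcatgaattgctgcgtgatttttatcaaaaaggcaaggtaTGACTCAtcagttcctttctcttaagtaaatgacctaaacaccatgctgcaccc
GPC5 site, chr13:89726798-89726941: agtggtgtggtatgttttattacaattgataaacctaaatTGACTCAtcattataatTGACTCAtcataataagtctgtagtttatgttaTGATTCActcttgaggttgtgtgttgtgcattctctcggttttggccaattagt
KLHL1 site, chr13:68888960-68889160: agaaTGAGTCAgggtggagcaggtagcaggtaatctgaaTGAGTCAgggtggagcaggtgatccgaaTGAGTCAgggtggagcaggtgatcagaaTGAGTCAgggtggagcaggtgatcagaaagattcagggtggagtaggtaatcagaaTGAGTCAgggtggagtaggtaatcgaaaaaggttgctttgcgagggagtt

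In the SOX11 site the match was TGAATCA, and in the AADAT and MTAP sites it was TGACTCA. The GPC5 site held 3 matches within the 144 bases shown. The KLHL1 site held 5 copies of TGAGTCA, the other strand's reading of TGACTCA, each followed by the same 8 bases and spaced 28 to 56 bp apart. The matches at that site are therefore copies of a repeated unit.

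An AP-1 match lay within 100 bp of the midpoint of 966 of the 1665 gained sites (58.0%, exact 95% interval 55.6% to 60.4%). The share in the same window, 100 bp either side, was 36.1% of the 23154 distal sites that were accessible in all 8 libraries, 19.4% of the 3057 held by 2 UV and 2 unchallenged libraries, 15.1% of all 237046 other distal sites and 8.15% of the 270 lost sites. The sites held by 2 and 2 libraries had nearly the same median width (502 bp) as the gained sites (493 bp), so the union sites of these 2 groups were of like size. The sites in all 8 libraries were wider (median 731 bp) and all other distal sites narrower (234 bp). The window thus covered unlike parts of them, and the part of the width in those differences was not tested. With the window centred on the summit instead, the point of highest fold enrichment, the order of the groups was the same at lower shares. The summit window held a match in 603 gained sites (36.2%, 33.9% to 38.6%), 28.3% of the sites in all 8 libraries, 13.2% of those in 2 and 2, 12.03% of all others and 5.56% of the lost sites. The summit-centred share is used from here on unless the midpoint is named. A match in either window was found in 1008 gained sites (60.5%), and 657 (39.5%) had none. A motif match describes the letters and does not show that a factor was bound.

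**Figure D1:**
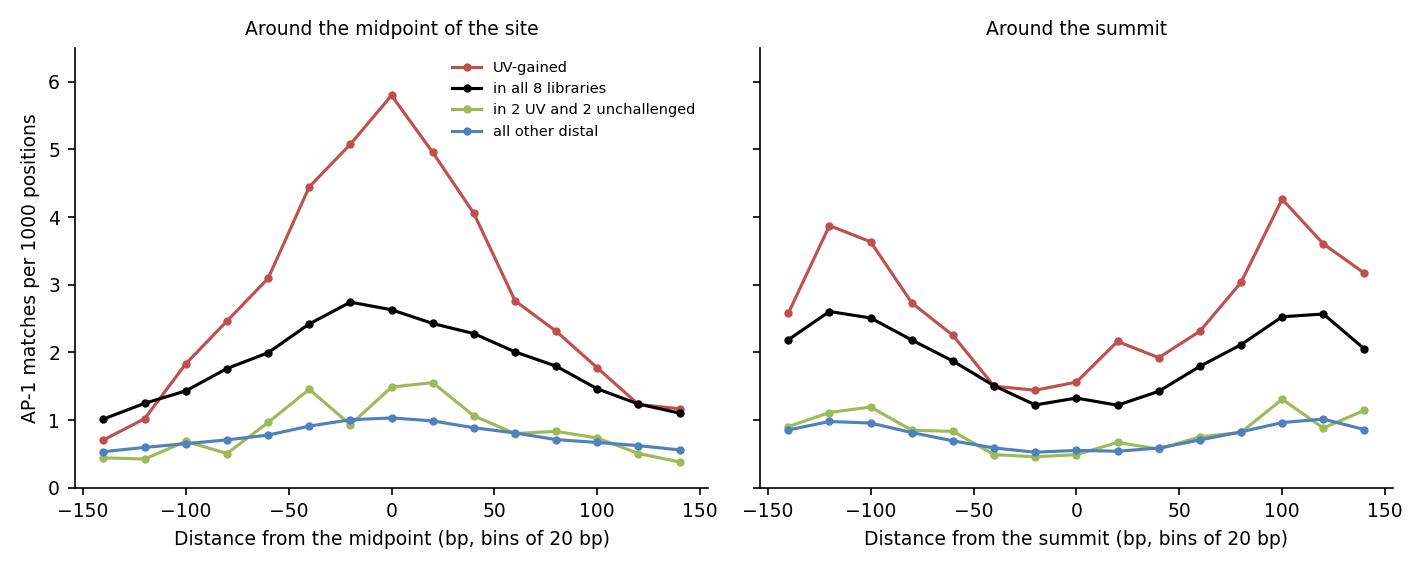
AP-1 matches per 1000 positions in bins of 20 bp, by distance from the midpoint of the site (left) and from its summit (right), for the gained sites, distal sites in all 8 libraries, distal sites in 2 UV and 2 unchallenged libraries, and all other distal sites. In the gained sites the density peaks at 5.80 at the midpoint and falls to 1.56 at the summit, with 4.26 matches 100 bp to its right.

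The matches gathered at the midpoint of the gained sites and thinned out at the summit. Within 10 bp of the midpoint there were 193 AP-1 matches in the gained sites, a density of 5.80 per 1000 positions, against 2.63 in sites of all 8 libraries and 1.03 in all other distal sites. The density in the gained sites fell on both sides, to 0.71 at 140 bp to the left and 1.17 at 140 bp to the right. Around the summit the profile was the opposite, with 1.56 matches per 1000 positions at the summit, 3.87 at 120 bp to the left and 4.26 at 100 bp to the right. Summits lay at a median of 84 bp from the midpoint, and the 4 UV lists placed the summit of the same site over a median range of 169 bp. All other distal sites had the same dip at the summit, at 0.55 against 0.96 at 100 bp to the right.

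The AP-1 share followed the number of UV libraries that held a site. Among distal sites with no region in any unchallenged list it was 10.1% in sites held by 1 UV library, 18.9% in those held by 2, 27.5% in those held by 3 and 36.2% in the gained sites. Among sites without a region in any UV list there was no such gradient, with 6.66%, 7.01%, 7.49% and 5.56% for 1 to 4 unchallenged libraries. In sites held by all 4 UV libraries the share fell from 36.2% with no unchallenged library to 34.2%, 30.9% and 28.02% with 1, 2 and 3, and was 28.3% with all 4. These shares are descriptions over sites, which are not replicates of a condition, and those for 1 UV or 1 unchallenged library alone rest on sites called in a single list.

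**Figure D2:**
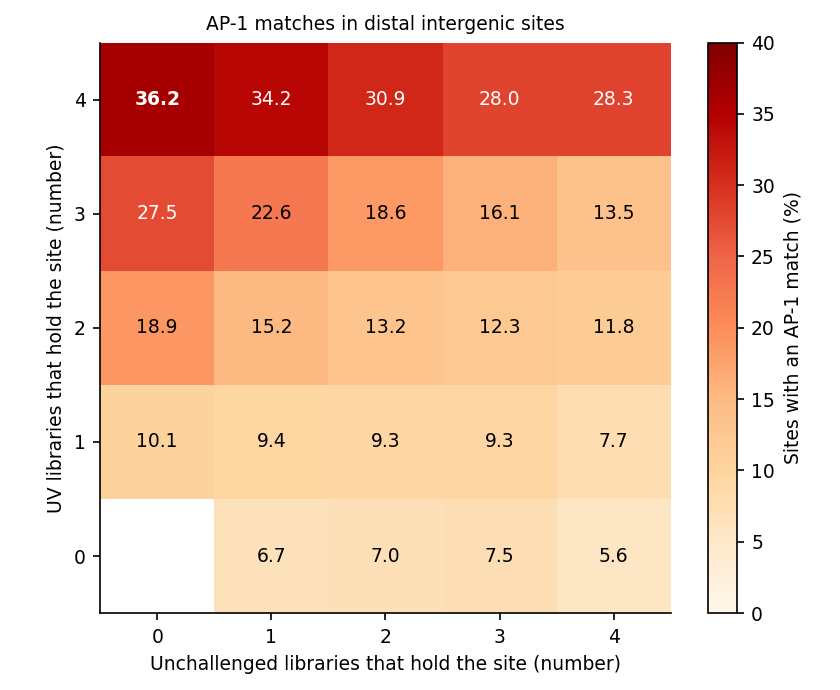
Share of distal intergenic sites with an AP-1 match within 100 bp of the summit (%), by the number of UV libraries (rows) and of unchallenged libraries (columns) that held the site. The gained sites are the cell at the upper left (36.2%, bold), the sites of all 8 libraries the one at the upper right (28.3%), and the lost sites the one at the lower right (5.56%).

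To compare UV and no UV over libraries and away from the gained sites, the AP-1 share was taken in distal sites that 1 library alone held. It was 8.37% and 15.7% in replicates 1 and 2 of WT cells 3 h post UV, and 9.78% and 9.08% in those of ASH1L-/- cells 3 h post UV. In unchallenged cells it was 6.43% and 7.44% in WT and 6.22% and 6.69% in ASH1L-/-. All 4 UV libraries were thus above all 4 unchallenged libraries, by 4.04 percentage points on average (10.7% ± 3.38 against 6.70% ± 0.533, SD, n = 4 each). The exact permutation test, two-sided, gave p = 0.0286, the smallest that 4 libraries against 4 allow, and an adjusted p of 0.0952 over the 10 motif tests of this kind, so that the difference did not pass after adjustment. This comparison was chosen after the data had been seen. Replicate 2 of WT cells 3 h post UV carried much of the size, and without it the difference was 2.38 points. It also held the fewest distal sites of its own (7635), and replicate 1 of unchallenged ASH1L-/- cells, with the lowest share, held the most (31803). The other UV libraries held 10216 to 18433 and the other unchallenged ones 17154 to 24144. The part of these numbers in the difference was not tested. The UV lists also held wider regions (median 356 to 444 bp against 242 to 291 bp) and more regions with a q-value below 0.05 (85.7% to 94.2% against 77.4% to 80.1%), and the part of the width in the difference was not tested. With only the regions of a q-value below 0.05, the difference was 4.62 points.

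The same test for the other motifs gave smaller differences. For NF-kB the share in sites of a single library was 3.09% ± 0.447 after UV and 2.41% ± 0.118 without UV (SD over 4 libraries each, with an exact permutation p of 0.0571 and an adjusted p of 0.143). For RUNX it was 15.2% ± 0.336 after UV and 16.1% ± 0.562 without UV (p = 0.0857, exact permutation test, adjusted p = 0.143). TEAD differed by less than the spread between libraries (p = 0.829, exact permutation test). For p53 with up to 1 mismatch the share was 0.767% ± 0.0770 after UV and 0.680% ± 0.0704 without UV, which did not pass the test (p = 0.171, exact permutation test). Over all distal sites of a library outside the gained ones, NF-kB stood at 3.57% ± 0.309 after UV and 3.07% ± 0.0454 without UV. All 4 UV libraries were then above all 4 unchallenged ones, as for AP-1 (21.5% ± 1.83 against 16.5% ± 1.25, p = 0.0286 and adjusted p = 0.0952 for each motif, exact permutation test).

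Among the gained sites themselves, NF-kB matches were found in 113 (6.79%, exact 95% interval 5.63% to 8.10%), against 3.56% of distal sites in all 8 libraries and 2.97% of all other distal sites. An AP-1 and an NF-kB match stood together in 45 gained sites, the SOX11 and ADO sites among them. RUNX matches (TGTGGT), the motif of the factors that direct bone cell differentiation, were found in 13.8% of the gained sites, 16.7% of all others, 19.4% of the sites in all 8 libraries and 33.3% of the lost sites. TEAD matches (CATTCC), read by the DNA-binding partners of YAP, were found in 14.4% of the gained sites, 13.8% of all others, 19.5% of those in all 8 libraries and 26.3% of the lost sites. The gained sites were thus above the sites in all 8 libraries and all other distal sites for AP-1 and NF-kB, and below both for RUNX. For TEAD they were below the sites in all 8 libraries and near all other distal sites. The 2092 gained sites near or inside protein-coding genes held AP-1 in 30.8% and NF-kB in 6.55%, so neither motif was particular to the distal ones.

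**Figure D3:**
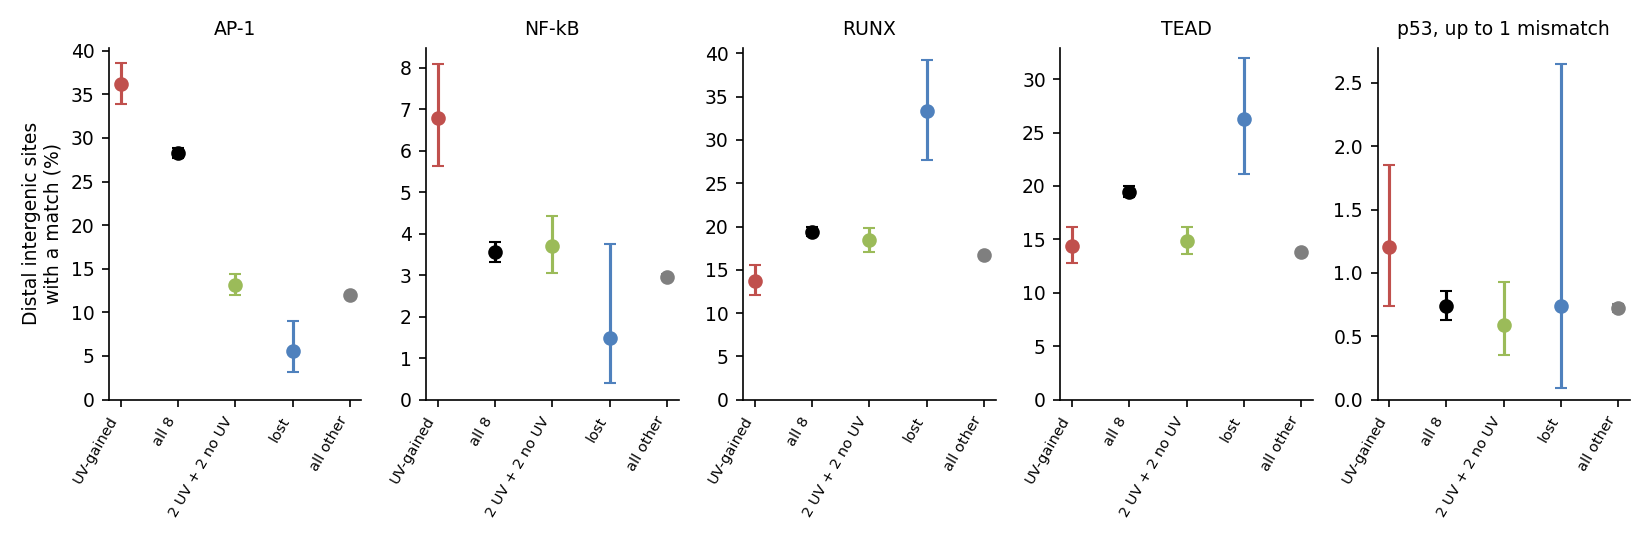
Share of distal intergenic sites with a match within 100 bp of the summit (%), for 5 motifs, in gained sites, sites in all 8 libraries, sites in 2 UV and 2 unchallenged libraries, lost sites and all other distal sites. Points are shares and bars exact 95% intervals, with a separate axis for each motif. AP-1 and NF-kB are highest in the gained sites (36.2% and 6.79%), RUNX and TEAD in the lost sites (33.3% and 26.3%).

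The remaining motifs were rare. FOX (TGTTTAC) was found in 2.46% of the gained sites and 2.97% of all others, SP/KLF (GGGCGG) in 3.72% and 3.97%, SRF in 1.14% and 1.12%, ATF4-C/EBP (TGATGCAA) in 1.26% and 0.883%, ETS (CCGGAAG) in 0.601% and 0.764%, CRE (TGACGTCA) in 0.300% and 0.138%, and CTCF in 0.240% and 0.304%. Of the AP-1 forms, TGACTCA was found in 25.9% of the gained sites and TGAATCA in 12.9%, against 8.11% and 4.32% of all other distal sites. The gained sites were poorer in G and C, at 44.1% ± 7.55 (SD over 1665 sites) against 46.6% ± 7.94 in all others and 48.1% ± 8.51 in the sites of all 8 libraries. Steps of TT or AA, where UV light forms most of its dimers, made up 16.7% of the dinucleotides in the gained sites and 15.5% in all others. The part of the lower content of G and C in this difference was not tested.

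p53 matches were few. A pair of decamers without a mismatch, at a spacing of up to 13 bases, was found in 5 gained sites (0.300%, exact 95% interval 0.0976% to 0.699%) against 0.0498% of all other distal sites. These 5, picked out after their values had been seen, were nearest to LRRC7, ADRA1D, ETV3, PRLR and GRIK3, and their fold enrichments after UV ran from 2.43 to 7.23. With up to 1 mismatch a pair was found in 20 gained sites (1.20%, 0.735% to 1.85%) and in 0.722% of all others. With up to 2 mismatches the shares were equal, at 7.03% and 7.04%. The following are shown because they were the highest gained sites with such a pair, with the decamers in capitals, plus strand of hg38.
STOX2 site, chr4:183729893-183729967: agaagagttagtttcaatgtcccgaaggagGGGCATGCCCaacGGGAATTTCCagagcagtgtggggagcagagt
CEP57 site, chr11:95577845-95577908: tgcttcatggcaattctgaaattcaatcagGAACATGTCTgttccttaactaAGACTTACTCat

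The pair in the STOX2 site had 2 mismatches and a spacer of 3 bases. Both mismatches fell in its right decamer, which was over its whole length the site's NF-kB match. The pair in the CEP57 site had 1 mismatch and a spacer of 12 bases. Fold enrichment at the CEP57 site after UV was 10.7 and 16.4 in WT cells, against 6.09 and 7.0 in ASH1L-/- cells. The other 3 high sites with a p53 pair, near ADAMTS5, IGFBP7 and EOMES, lay 237649 to 1623985 bp from the TSS of those genes, at fold enrichments of 4.06 to 18.0. At these 5 sites the fold enrichment, which is not normalised between lists, was higher in both WT libraries than in both ASH1L-/- libraries, a pattern found at 473 (28.4%) of all gained sites and at 23.4% of the 35193 distal sites with a region in all 4 UV lists. By percentile within the list the genotypes overlapped at the EOMES site.

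The heights of the gained sites were moderate within each list. The fold enrichment is the ratio of the read pileup at the summit to the local background of the same library, each with 1 added. Its median over the 1665 sites was 3.68 and 5.08 in replicates 1 and 2 of WT cells 3 h post UV, and 3.94 and 3.87 in those of ASH1L-/- cells. These medians stood at the percentiles 50.9, 50.1, 49.6 and 55.4 of the respective lists, so the typical gained site was as high as the typical region of its list. Only 22 sites (1.32%) reached the top quartile in every UV list, while 1427 (85.7%) had a q-value below 0.05 in all 4.

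The genome-wide mean pileup differed between libraries, at 2.10, 1.74, 5.87 and 1.39 in the unchallenged ones and 2.45 to 2.81 in the UV ones, the deepest of all 8 being replicate 1 of unchallenged ASH1L-/- cells. Heights were therefore also expressed as the pileup divided by that mean. Their median over the gained sites was 5.93 and 8.60 times the genome mean in WT cells and 6.54 and 6.04 times in ASH1L-/- cells after UV. The pileup at the median site was 15, 23, 16 and 17 in the same order. The lowest height that an unchallenged list could have called over that background was 2.86 and 2.87 times the mean in WT and 2.04 and 3.597 times in ASH1L-/- cells. The mean UV height exceeded all 4 of these limits at 1654 of 1665 sites (99.3%). In every one of the 4 UV libraries the height exceeded the limit of the shallowest unchallenged library at 1318 sites (79.2%). It exceeded that of the deepest at all 1665, but this was fixed by the choice of sites. A gained site had to be called in every UV list, whose own limits were 2.49 to 2.86 times the mean. The WT limits without UV lay close to these. All these limits hold for the genome mean as background and are higher where the local background is higher. In bulk chromatin, more cells with an open site and a wider opening per cell cannot be told apart.

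**Figure D4:**
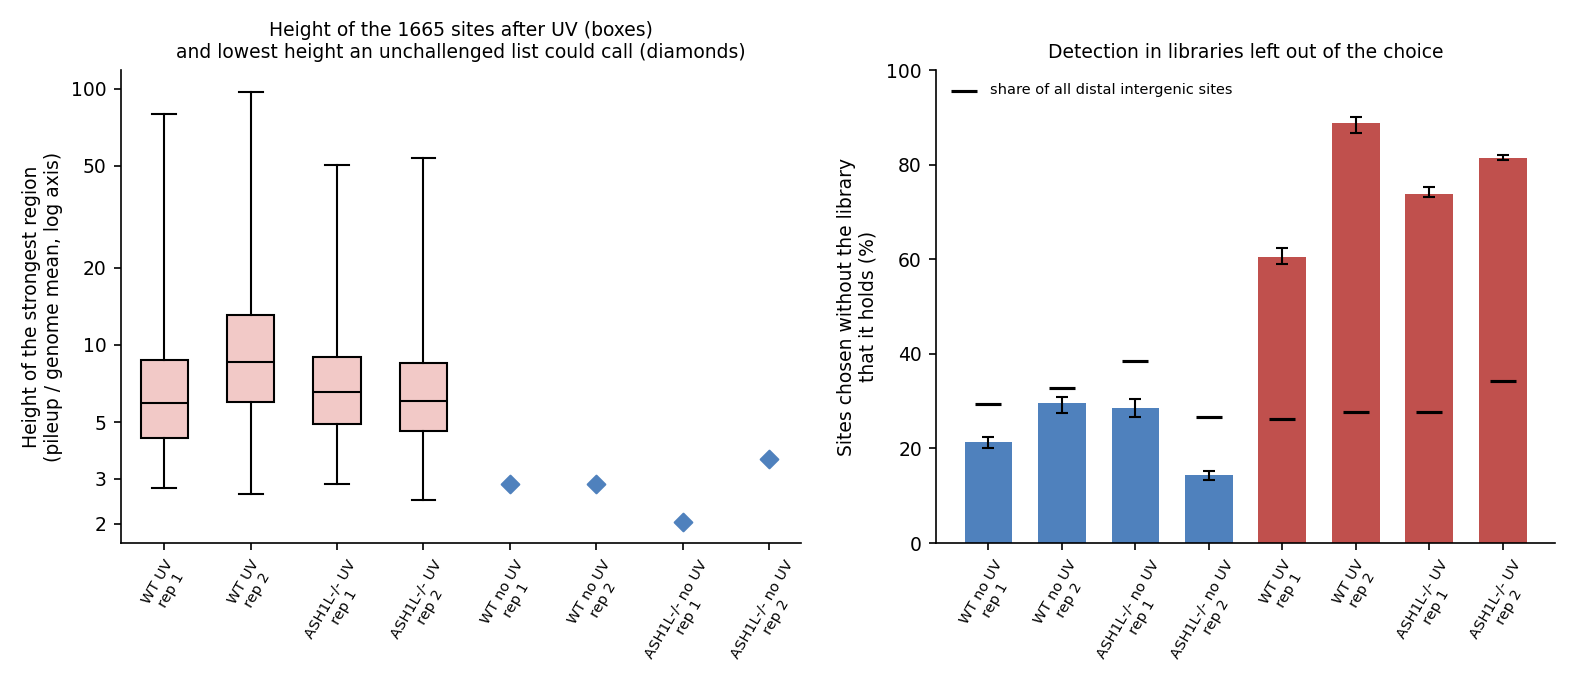
Left, height of the 1665 gained sites in each UV library (pileup divided by the genome mean, log axis; box, quartiles and median; whiskers, lowest and highest), with diamonds for the lowest height each unchallenged list could call. Right, percentage of sites chosen as gained without a library that the library then held (bars, mean over 4 choices; error bars, lowest and highest; dashes, its share of all distal sites), which is 60.5% to 88.8% in UV libraries and 14.3% to 29.7% in unchallenged ones.

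Whether the gained pattern carried over to libraries that had no part in the choice was examined by leaving out 1 UV and 1 unchallenged library, choosing distal sites on the other 6, and looking them up in those left out. The sites so chosen were held by 60.5% and 88.8% on average in replicates 1 and 2 of WT cells 3 h post UV, and by 73.9% and 81.5% in those of ASH1L-/- cells. Left-out unchallenged libraries held 21.5% and 29.7% in WT and 28.5% and 14.3% in ASH1L-/- cells. Every UV library was above every unchallenged library. Over the 16 choices the difference was 52.7 ± 12.3 percentage points (SD over choices, not over replicates), with a range of 29.8 to 73.8. The choices share libraries, so no test was made. The UV lists were also more alike than the unchallenged ones, and the part of this in the difference was not tested. When sites were chosen in one genotype and looked up in the other, the 6163 chosen in WT cells were held by 60.7% and 65.9% in UV libraries of ASH1L-/- cells, against 28.3% and 18.6% in unchallenged ones. The 7750 chosen in ASH1L-/- cells were held by 50.6% and 70.0% in UV libraries of WT cells, against 23.3% and 28.8% in unchallenged ones.

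Many sites missed the rule by a single library. A region in 3 UV libraries and no unchallenged one was found at 2354 distal sites, of which 1130 lacked replicate 1 of WT cells 3 h post UV and 211 lacked replicate 2. A region in all 4 UV libraries and 1 unchallenged library was found at 2184 distal sites. Of these, 744 and 672 had it in replicate 2 of unchallenged WT cells and in replicate 1 of unchallenged ASH1L-/- cells. The count of gained sites thus depended on the weakest UV library, and rose to 2795 when replicate 1 of irradiated WT cells was left out. Without the deepest unchallenged library it rose to 2337. Without replicates 1 and 2 of unchallenged WT cells it rose to 2148 and 2409, and without replicate 2 of unchallenged ASH1L-/- cells to 1950.

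To determine whether ASH1L affected the heights of the gained sites after UV, the genotypes were compared, which the choice of sites had treated alike. The median percentile was 50.5 ± 0.611 in WT and 52.5 ± 4.10 in ASH1L-/- cells (SD, n = 2 each). The difference of -1.96 percentile points was within the spread of the replicates (p = 1, exact permutation test, two-sided), and 2 libraries against 2 cannot go below p = 0.333. On the log2 scale of the fold enrichment the difference was 0.15, and on that of the height over the genome mean 0.18, both toward WT (p = 1 each, exact permutation test, two-sided), so the direction depended on the measure. Both WT percentiles were above both ASH1L-/- percentiles at 352 sites (21.1%), the reverse held at 394 (23.7%), and the libraries overlapped at 919 (55.2%). Over all 35193 distal sites with a region in all 4 UV lists the same patterns held at 14.9% and 27.1%, so the reverse pattern was the more frequent in both sets. On the fold enrichment the order turned, with WT above at 473 gained sites (28.4%) and below at 200 (12.01%), against 23.4% and 9.24% of those 35193 sites. Replicate 2 of WT cells 3 h post UV had the greatest height over the genome mean at 967 sites (58.1%). No difference between the genotypes was detectable at this number of libraries.

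The highest gained site lay on chromosome 2 from 5797976 to 5798622 (hg38), 105915 bp from the TSS of SOX11, a neural transcription factor gene. Its fold enrichment after UV was 20.4 and 23.8 in WT cells, against 20.0 and 17.8 in ASH1L-/- cells. The pileups behind these values were 120, 169, 89 and 104 over local backgrounds of 3.51 to 6.14. It stood at the percentiles 98.9 to 99.7 of the 4 lists and was the only gained site above the percentile 98 in all of them among the 10 highest.

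The next was on chromosome 4 from 170741746 to 170742373, 650360 bp from the TSS of AADAT, which encodes an aminotransferase of tryptophan and lysine breakdown. Fold enrichments there were 15.6 and 20.8 in WT and 15.7 and 17.2 in ASH1L-/- cells. The third, on chromosome 10 from 62779333 to 62780088, lay 25010 bp from the TSS of ADO, the gene of a thiol dioxygenase, over an unnamed long non-coding RNA (lncRNA) gene. It had fold enrichments of 18.7 and 18.4 in WT and 14.4 and 9.25 in ASH1L-/- cells. At the ADO site both WT libraries were above both ASH1L-/- libraries, whereas at the AADAT site the genotypes overlapped.

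Of the other high sites, the one near KPNA3, an importin gene on chromosome 13 (49811122 to 49811661), had fold enrichments of 12.4 and 14.7 in WT and 12.4 and 12.02 in ASH1L-/- cells. The one near VGLL2, a gene of a TEAD cofactor on chromosome 6 (117174776 to 117175430), had 10.8 and 15.4 against 12.98 and 9.82. Neither held an AP-1 match in the summit window. The site 124656 bp from MTAP, a gene of methionine salvage on chromosome 9 (21677638 to 21678322), had 9.90 and 9.22 in WT and 15.4 and 12.5 in ASH1L-/- cells. It was the only one of the 10 at which both ASH1L-/- libraries were above both WT libraries. The sites near NRG1 on chromosome 8, a gene of a growth factor of the EGF family, STOX2 on chromosome 4 and TERB2 on chromosome 15 had fold enrichments between 8.08 and 14.5. Of these sites, those near SOX11, AADAT, ADO and MTAP held an AP-1 match in the summit window.

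**Figure D5:**
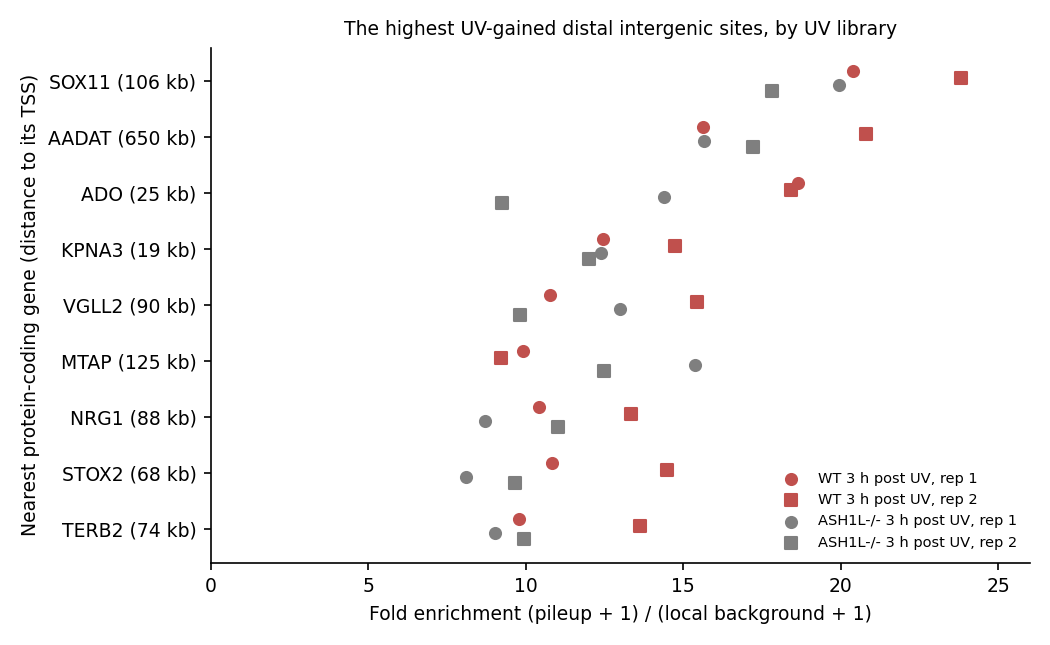
Fold enrichment of the 10 highest gained sites, less 1 not reported here, in the 4 UV libraries (points; colour, genotype; shape, replicate), each named after its nearest protein-coding gene with the distance to its TSS. The SOX11 site sits at 17.8 to 23.8, and the last of the 10, near TERB2, at 9.01 to 13.6.

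At the other end, the sites of lowest mean percentile lay near LIFR, COL6A3 and RPLP1, at fold enrichments of 1.54 to 2.01. Their pileups were nevertheless 33 to 79, at local backgrounds of 16.3 to 46.5, which is many times the genome mean. At the site near LIFR, for instance, a pileup of 45 in replicate 1 of WT cells 3 h post UV stood over a background of 24.1. The low percentile of these 3 sites thus went with a high local background and not with a low pileup. A background over 5 times the lowest was found at 2.22% to 5.59% of the gained sites, depending on the library. The gained site farthest from a TSS lay on chromosome 11, nearest to RAG2, with fold enrichments of 4.19 to 5.06. Those next in distance lay 1994494 bp from PIK3C3 and 1972905 bp from AGA.

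By mean percentile within the list, the AP-1 share was lowest in the lowest gained sites. It was 29.0% in the lowest quartile of mean percentile, 38.2% and 37.0% in the middle ones and 40.6% in the highest. The mean content of G and C fell from 46.3% to 41.8% over the same quartiles. The median percentile of sites with an AP-1 match near the midpoint was 54.0 and 52.4 in WT and 51.5 and 56.6 in ASH1L-/- libraries after UV, against 49.3, 46.9, 47.0 and 52.8 for sites without one. Sites with a match near the midpoint were thus higher in all 4 UV libraries, by between 3.76 and 5.56 percentile points. With the match sought around the summit, the medians were 55.2, 52.0, 51.5 and 55.5 with one and 50.9, 48.7, 48.5 and 55.3 without, so replicate 2 of ASH1L-/- cells was nearly level. The median height over the genome mean was 6.81 with a match around the summit and 6.92 without, so the order depended on the measure.

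The rate of gained sites ran from 0.359 per 100 distal sites on chromosome 19 to 2.05 on chromosome X. The median distance to the nearest protein-coding TSS was 106903 bp, against 112292 bp for all other distal sites and 83696 bp for those in all 8 libraries. It exceeded 1 Mb at 4.08%, against 3.73% of all others. A lncRNA gene lay over the midpoint of 494 gained sites (29.7%), against 29.6% of all others. The nearest site accessible in all 8 libraries was at a median of 14644 bp, and 39.5% had one within 10 kb, against 35.2% of all others and 30.1% of the sites in 2 UV and 2 unchallenged libraries. Another gained site lay within 50 kb of 254 of them (15.3%). Near the 10 kb limit, the sites near B4GALNT4 and PGF were just inside at 10030 and 10075 bp, with fold enrichments of 2.89 to 5.91. Gained sites near ITM2B and AP1S2, at 9967 and 9950 bp, were just outside, with 3.12 to 7.34.

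The sites were shared out among many neighbouring genes. They had 1288 nearest protein-coding genes in all, of which 1016 were nearest to 1 gained site. CHAC2, IGFBP7, MAP3K7 and PIK3C3 were nearest to 5 each. Per 100 distal sites nearest to the gene, these were 2.08, 1.26, 6.76 and 4.35, against 0.697 over all distal sites. RPS6KA3, which encodes a ribosomal S6 kinase, was nearest to 4 gained sites and only 20 other distal sites, or 16.7 per 100. It was picked out after its value had been seen. The nearest gene of a distal site need not be the gene it acts on, and no expression was measured.

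Immediate-early and AP-1 genes, which cells switch on within minutes to hours of a stimulus, were nearest to 15 gained sites (0.901%) and to 0.534% of all other distal sites. These belonged to 10 of the 22 genes listed. KLF6, of a zinc finger factor, had 4 of them, at 27134, 66472, 112193 and 470644 bp from its TSS and with fold enrichments of 2.10 to 5.26. JUN, the core AP-1 subunit, had 1 at 125330 bp, on chromosome 1 from 58909130 to 58909627. Its fold enrichment was 4.24 and 4.90 in WT and 5.22 and 5.76 in ASH1L-/- cells, so both ASH1L-/- libraries were higher. DUSP10, a phosphatase of the JNK and p38 stress kinases, had 2. The one 114439 bp away stood at 5.09 and 8.51 in WT and 7.67 and 8.97 in ASH1L-/- cells. The one 292100 bp away stood at 6.80 and 12.8 in WT and 3.48 and 3.41 in ASH1L-/- cells, so that both WT libraries were higher there, unlike at the JUN site. ATF3, JUND, KLF4, DUSP1, DUSP5 and DUSP6 had 1 each and MYC had 2, with fold enrichments of 1.60 to 6.80. An AP-1 match in the summit window was present near KLF4, DUSP6, DUSP1 and DUSP5, and at 1 each of the sites of MYC and KLF6, and absent at those near JUN, JUND, ATF3 and DUSP10.

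TEAD-YAP genes were nearest to 5 gained sites, 2 of CCN2, which encodes a matrix protein, and 1 each of TEAD1, ANKRD1 and CCN1. This was 0.300%, against 0.0620% of all other distal sites. Fold enrichments at the CCN2 site 24886 bp from its TSS were 3.15 and 6.49 in WT and 3.48 and 5.65 in ASH1L-/- cells. Inflammatory genes were nearest to 3 (0.180% against 0.0683%), all in the chemokine cluster of chromosome 4. The CXCL8 site at 17330 bp held 2 AP-1 matches, with fold enrichments of 6.56 and 5.59 in WT and 4.84 and 5.70 in ASH1L-/- cells. Another CXCL8 site, at 18377 bp, stood at 5.63 and 5.35 in WT and 3.40 and 2.44 in ASH1L-/- cells. Neither that site nor the CXCL1 site held an AP-1 match in the summit window. The CXCL1 site at 33095 bp stood at 4.53 and 10.9 in WT and 8.06 and 9.68 in ASH1L-/- cells.

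p53 target genes were nearest to 2 gained sites (0.120%, against 0.0780% of all others). One lay 13084 bp from the TSS of MDM2, the ubiquitin ligase of p53, at fold enrichments of 5.10 and 11.9 in WT and 5.51 and 6.78 in ASH1L-/- cells. The other lay 15778 bp from BTG2, an inhibitor of proliferation, at 2.52 to 4.0. Neither held a p53 pair with up to 2 mismatches in the summit window. Of the 21 nucleotide excision repair genes, none was nearest to a gained site, while 216 other distal sites (0.0911%) were nearest to one of them. A count of 0 of 1665 sites allows a share of up to 0.180%, so a lower share at repair genes than elsewhere was not detectable.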

How the data were processed

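The authors trimmed reads with cutadapt (1.9.1), aligned them with Bowtie2 (2.4.5) to hg38 without chromosome Y, filtered them with SAMtools (1.7), Picard and bedtools (2.29.2), and called peaks with MACS2 (2.2.7.1) in each library without pooling replicates. The deposited lists gave, per summit, a fold enrichment (the ratio of pileup to local background), a −log10 p-value, a −log10 q-value, and a score of the authors' caller, which was not used. No value was normalised between libraries. The study aimed at the same depth for every library. Read totals after filtering are not given in the sources used here, so pileups were solved from the fold enrichment and p-value.

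Touching regions were merged into union sites, and an overlap of 1 bp was enough for a library to hold a site. Genes came from GENCODE release 44. Motifs were searched on both strands within 100 bp of the summit of highest within-list percentile. The named sites were the 10 members of highest and 3 of lowest mean percentile, the 3 farthest from a TSS, the first 5 with a p53 pair of up to 2 mismatches, the 3 with most AP-1 matches, and 2 on each side of the 10 kb limit. The sites and gene lists were chosen with earlier results of these data known. The functions that solve pileups, merge sites and look them up in lists, measure distance to genes and search motifs were tested on simulated data. The permutation test was not among them. Computation used Python 3.11.15, numpy 2.4.6, pandas 2.3.3 and scipy 1.17.1. The samples' titles gave groups and replicate numbers. Marker promoters were accessible for RUNX2, VIM, COL1A1 and SPARC in 8 libraries, for COL1A2 in 7 and for TWIST1 in 2, and of the genes of other cell types for CDH1 and EPCAM in 8, and PTPRC and ALB in 1, so promoter accessibility did not mark the cell type. Another listed gene and 1 of the 10 highest sites are not reported here. The study describes the replicates as independent experiments, and p-values measure only the spread between these libraries.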

Additional observations from a re-analysis of the deposited data

How the results depend on the processing

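The number of gained sites was 1036 when lncRNA genes were treated like protein-coding genes, and 1156 to 2284 in the other 6 settings that kept all libraries, each within 1.5 times of 1665. Leaving out 1 library at a time gave 1876 to 2795, since each rule then asks less of a site. The gained share was 86.0%, and 90.8% when only regions of a q-value under 0.05 counted, 93.4% at 0.01, 92.7% with 50% of the site covered and 69.2% to 89.6% without 1 library. The held-out difference was 39.8 points when sites were chosen in WT and measured in ASH1L-/- cells and 34.3 points in the reverse direction, against 52.7. The excess of AP-1 over all other distal sites was 24.2 points, 40.04 with 150 bp either side of the summit, 9.91 with 50 bp, 43.0 around the midpoint and 19.9 to 25.4 without 1 library. The excess of p53 pairs with up to 1 mismatch was 0.479 points, 0.993 with 150 bp, 0.180 with 50 bp and 0.819 around the midpoint, and without 1 library it ran from 0.261 (without ASH1L-/- no UV replicate 1) to 0.719 (without WT 3 h post UV replicate 2). The share itself was 2.10% with 150 bp and 0.480% with 50 bp, both outside its exact 95% interval of 0.735% to 1.85%. In the other settings it lay within that interval. The difference in content of G and C was -2.55 points, -1.37 around the midpoint and -2.58 to -1.90 without 1 library, the last without ASH1L-/- no UV replicate 1. In the other 10 settings the difference ran from -2.76 to -2.25 points. The genotype difference of -1.96 points became 0.15 as log2 fold enrichment, 0.18 as log2 height and, without 1 library, -4.86 to 0.95, and no setting can pass the test. Why these values moved was not tested.

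The AP-1 difference between libraries, added with its alternatives after the data had been seen, kept p = 0.0286 (exact permutation test) in 8 of 12 settings. It ran from 2.38 to 4.83 points without 1 library. Without 1 unchallenged library (3.95, 4.29, 3.88 and 4.04 points) the exact permutation p was 0.0571 and the difference no longer passed. Deviations of libraries with the same replicate number correlated at -0.079 to 0.14 over 60324 sites, so the numbers were not taken to pair libraries, and the replicate block left the genotype difference at -1.96 points (p = 1, exact permutation of signs).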

Other observations

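Chromosome X held 71 of the gained sites, or 2.05 per 100 of its distal intergenic sites (exact 95% interval 1.61 to 2.58), the highest rate of the 23 chromosomes. Chromosomes 6 and 18 followed at 1.07 and 1.04 per 100, and chromosome 19 was the lowest at 0.359. Of the distal sites outside the gained ones, chromosome X took 1.84% and 2.69% in the UV libraries of WT cells, 2.09% and 2.04% in those of ASH1L-/- cells. Unchallenged, it took 1.66% and 1.94% in WT and 1.25% and 1.84% in ASH1L-/- cells. The mean difference was 0.492 percentage points (p = 0.0571, exact permutation test, two-sided, n = 4 each). This comparison was chosen after the rates by chromosome had been seen.

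The gained sites that held an NF-kB match had median percentiles of 65.4 and 52.3 in WT after UV, 47.0 and 50.6 in ASH1L-/- cells, against 50.9, 50.1, 49.6 and 55.4 over all gained sites. Replicate 1 of WT cells was thus far above the other libraries at these 113 sites. The 45 with both an NF-kB and an AP-1 match showed the same order in WT cells, at 68.4 and 53.2.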
